A study of Mus musculus with 9 samples.

Results

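The imprinted Dlk1-Dio3 miRNA cluster was examined in miRNA sequencing of the mouse left ventricle. Members were the rows of the deposited count table whose name, after the arm and copy number were removed, was on a list of 47 miRNA names of the cluster. Of these names, 39 had a row and 8 (miR-412, miR-539, miR-544, miR-654, miR-679, miR-758, miR-1197 and miR-3072) matched none and were not analysed here. The 39 names, such as mmu-miR-127, mmu-miR-434, mmu-miR-136, mmu-miR-381 and mmu-miR-411, gave 54 of the 621 rows of the table. The prefix mmu, for mouse, is left out below. A filter on low counts kept 47 of the 54 for testing, among 509 rows in all, and the other 7 are given apart.

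All mice were males aged 6 months on the C57BL/6J background, in 3 groups of 3 libraries. TG-High mice carried the CaNrf2-High transgene, TG-Low mice carried the CaNrf2-Low transgene, and NTG mice were non-transgenic. Nrf2, the product of Nfe2l2, is a transcription factor of the antioxidant response, and the submitters compared both transgenic lines together (TG) with NTG. The promoter that drives the transgene, the number of founder lines and the level of the Nrf2 transcript are unstated in the labels. Nor do the labels tie each library to an animal of its own, so that the p-values speak only of the spread between libraries, which may be technical. Total counts per library were 3620465 to 11695744, and members took 5694 to 19215 counts. Heart muscle markers (miR-1a, miR-133a, miR-208a and miR-499, 9 rows) summed to 12435 to 26478 counts per 1e6 counts (CPM) in the 9 libraries. Most of this sum was miR-499-5p (mean 17002 CPM) and miR-208a-3p (2629 CPM), both made from heart myosin genes. miR-1a-3p had 111 CPM, and the miR-133a rows, also of heart muscle, were low, with miR-133a-5p at 16.9 CPM and miR-133a-3p at 1.52 CPM. All p-values below come from fits over the whole table, adjusted by Benjamini-Hochberg over all rows tested.

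The Dlk1-Dio3 domain is an imprinted region. Its protein-coding genes, Dlk1, Rtl1 and Dio3, are expressed from the paternal chromosome, whereas the long non-coding RNAs Meg3, Rian and Mirg and the miRNAs that lie in and between them are expressed from the maternal one. The miRNAs are thought to be cut from long maternal transcripts that cross the region. They are abundant in the embryo, placenta and brain and low in most adult tissues. miR-127 and miR-136 lie antisense to Rtl1 and can direct its cleavage. In skeletal muscle the transcription factor MEF2A switches the cluster on.

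The mature sequences on which the results turn are shown here 5′ to 3′, from RefSeq on GRCm38.p6, with the seed (bases 2 to 8, the part that pairs with a target) in capitals. The first set holds the 5 rows that passed the test in TG-High hearts, and the second set holds other abundant rows.
miR-434-5p: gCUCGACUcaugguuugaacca
miR-136-5p: aCUCCAUUuguuuugaugaugg
miR-376b-5p: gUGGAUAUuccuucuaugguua
miR-381-3p: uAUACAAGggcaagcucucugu
miR-377-3p: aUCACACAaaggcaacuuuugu
miR-127-3p: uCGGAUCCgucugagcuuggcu
miR-411-5p: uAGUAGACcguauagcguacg
miR-379-5p: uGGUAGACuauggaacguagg
miR-300-3p: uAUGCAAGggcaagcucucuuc
miR-541-5p: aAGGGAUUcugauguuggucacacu
miR-434-3p: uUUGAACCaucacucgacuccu

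RefSeq held a sequence for 51 of the 54 rows. These 51 sequences had 49 different seeds, so the cluster is not a seed family. Only 2 seeds were shared, AUGUAAC by miR-379-3p and miR-411-3p, and AUGUGGG by miR-299a-3p and miR-299b-3p. Some members differed by 1 seed base, with positions counted from 1 at the 5′ end. The change from miR-379-5p to miR-411-5p was G2A, that from miR-300-3p to miR-381-3p was G4A, and that from miR-379-3p to miR-410-3p was G4A. The 5 rows that passed the test in TG-High hearts had 5 different seeds, as printed above.

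The members lie on chromosome 12 of GRCm38 (positions from GENCODE M21) and fall into 3 blocks, with a gap of over 10000 bases between hairpin starts taken as a border. The first block runs from the miR-673 hairpin to the miR-136 hairpin (chr12:109571990-109595388) and has 13 rows, 11 of them tested. It lies downstream of Meg3, and 6 of its annotated hairpins overlap an exon of Rtl1 on the opposite strand. The second block runs from the miR-341 hairpin to the miR-370 hairpin (chr12:109611500-109618336), within introns of Rian, and has 2 rows, both tested. The third block runs from the miR-379 hairpin to the miR-410 hairpin (chr12:109709060-109743795) and has 39 rows, 34 of them tested. In this range 8 annotated hairpins overlap exons of Mirg and 5 lie in its introns, the first of them miR-382. The hairpins upstream of miR-382, among them miR-379, miR-411, miR-376b and miR-381, overlap no part of Mirg as annotated. The blocks are called the Rtl1 block, the Rian block and the Mirg block here, as labels of position and not of a host gene for every row.

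Some rows share a source. The miR-299a and miR-299b hairpins lie on opposite strands of the same bases, and their rows held identical counts. The mature forms overlap by 18 bases on opposite strands.
miR-299a-5p: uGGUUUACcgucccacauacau
miR-299b-3p: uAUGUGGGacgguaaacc
The rows of miR-299a-5p and miR-299b-3p thus carried the same reads, as did those of miR-299a-3p and miR-299b-5p. Whether counting used strand is unstated, but the identical counts show that strand did not separate these rows. Reads of these hairpins thus cannot be told apart. miR-136-5p and miR-337-5p likewise had the same counts as the rows of miR-3071-3p and miR-3544-3p, which are no members and lie opposite to them. The 47 tested rows therefore held 45 distinct rows.

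TG-Low replicate 2 stood apart from the other libraries in this cluster. The summed level of the 47 tested members was 1501, 1559 and 1625 CPM in the TG-High libraries, 1702, 1519 and 742 CPM in the TG-Low libraries, and 1277, 1050 and 1017 CPM in the NTG libraries. TG-Low replicate 2 was thus the lowest of the 9 libraries, while the other 5 transgenic libraries all lay above every NTG library. Its sum was 0.461 times the mean of the other TG-Low libraries. In whole-ventricle RNA, fewer cells of a type and less RNA per cell cannot be told apart.

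**Figure D1:**
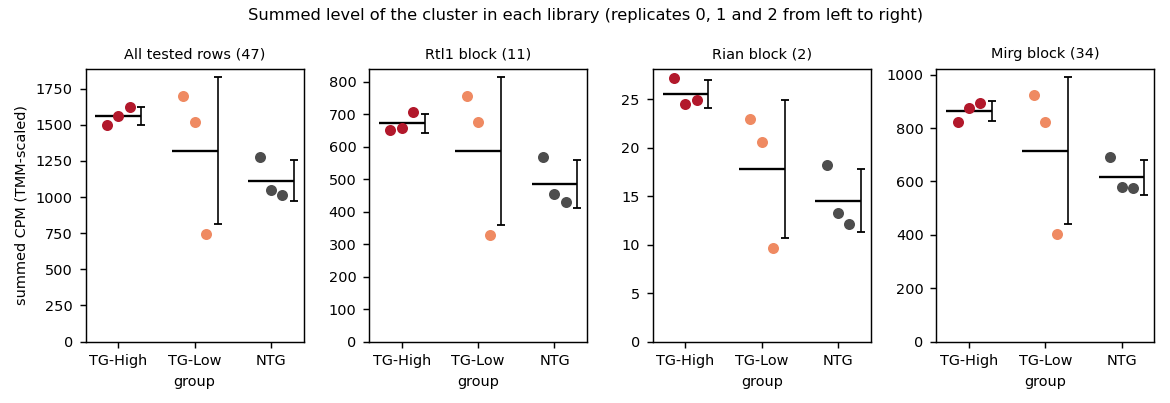
Summed level of the tested members (CPM, linear axis from 0) in each of the 9 libraries (points), for the whole cluster and by block, with the group mean (line) and SD (bar). The TG-Low replicate 2 library sits at 742 CPM for the whole cluster, against 1501 to 1702 CPM in the other 5 transgenic libraries and 1017 to 1277 CPM in the NTG libraries.

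The low level in TG-Low replicate 2 ran through the whole cluster. All 47 tested members were lower there than the mean log2 CPM of the other TG-Low libraries, with differences of -2.11 (miR-380-3p) to -0.39 (miR-431-5p) and a median of -1.02. Of the 462 rows tested that are no members, 214 were lower, with a median difference of 0.05. The difference was over 2-fold for 27 of the 47 members (57.4%) and for 14 of the 462 other rows (3.03%), against 8.06% of all rows tested. Those 14 rows included 4 rows of miR-486a and miR-486b, miRNAs of red cell precursors and muscle, at -2.24 to -1.68. They also included miR-133b-3p, a muscle miRNA, at -1.59. TG-Low replicate 2 was the lowest of the 9 libraries for 35 of the 47 members (74.5%), 32 of the 462 other rows (6.93%) and 13.2% of all rows tested.

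The 3 blocks moved together in that library. Its summed level was 0.459 times the mean of the other TG-Low libraries in the Rtl1 block, 0.444 times in the Rian block and 0.463 times in the Mirg block. The ratio of the sums, led by the abundant rows, was thus nearly the same in the 3 blocks. Single rows varied more, with log2 differences of -2.11 to -0.39. Against the NTG mean, the median log2 difference was -0.35 in the Rtl1 block, -0.47 in the Rian block and -0.70 in the Mirg block. Neural and fibroblast markers did not move with the cluster in that library. The 9 neural marker rows (miR-128, miR-137, miR-153, miR-219a and miR-338) summed to 1017 CPM in TG-Low replicate 2, within the 771 to 1107 CPM of all 9 libraries. Most of this sum was miR-128-3p, at 933 CPM, so the sum says little of the other rows. For none of the 9 rows was that library the lowest. miR-9 and miR-124 had no row and were not analysed here. The 4 fibroblast marker rows (miR-199a, miR-199b and miR-214) summed to 877 CPM, within the 706 to 1067 CPM of all libraries, and none was lowest there. The 5 erythroid rows (miR-451a, miR-144 and miR-486a) summed to 1829 CPM, the lowest sum of the TG-Low group (up to 2216 CPM) and below the 2147 to 2818 CPM of NTG, and 2 of them were lowest there. The low sum came from miR-486a, with 34.1 CPM of the 5p row, against 434 and 60.6 CPM in the other TG-Low libraries, and 143 CPM of the 3p row, against 576 and 365 CPM. miR-451a at 1195 CPM, miR-144-3p at 368 CPM and miR-144-5p at 88.3 CPM, all red cell miRNAs, lay between the other TG-Low libraries. The 2 rows of skeletal muscle markers (miR-133b and miR-206) summed to 81.3 CPM, against up to 252 CPM in the TG-Low group and 142 to 267 CPM in NTG. Nearly all of this was miR-133b-3p, while miR-206-3p at 4.44 CPM lay between the other TG-Low libraries. Each of the 4 smooth muscle rows (miR-143 and miR-145a) was lower there than in both other TG-Low libraries. Of these, miR-145a-5p had 2463 CPM, against 3452 and 3765 CPM, and 1 row was lowest of the 9 libraries. Their sum, 91655 CPM, was the lowest of TG-Low but within the 82474 to 106210 CPM of NTG. The 2 endothelial rows (miR-126a), the 8 leukocyte rows and the 9 heart muscle rows had their highest TG-Low sums there. Single rows of the last 2 lists went both ways. miR-499-5p had 20036 CPM, against 17638 and 16102 CPM in the other TG-Low libraries, but miR-208a-3p had 2874 CPM, against 2958 and 2973 CPM. Among leukocyte rows, miR-142a-5p had 437 CPM, against 289 and 252 CPM, but miR-150-5p had 611 CPM, against 777 and 653 CPM. The library had 8120030 counts, against 8159606 and 8656324 in the other TG-Low libraries. The part of blood, muscle or other cell content in the low level of the cluster was not tested.

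**Figure D2:**
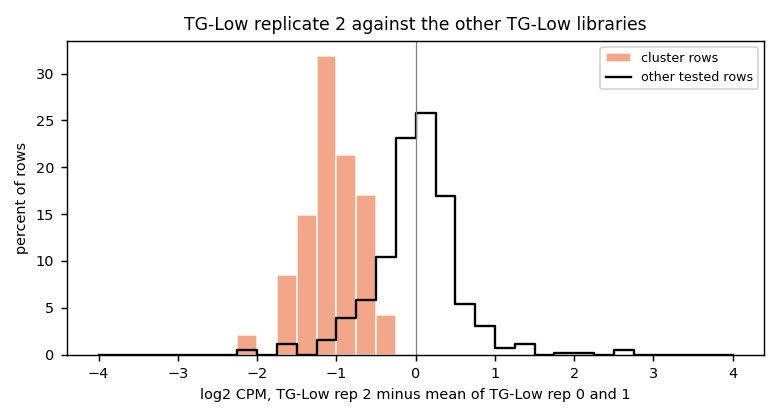
Percent of rows by the difference in log2 CPM between TG-Low replicate 2 and the mean of the other TG-Low libraries, for the 47 tested members and the 462 other rows. All members lie below 0 with a median of -1.02, and the other rows are centred near 0 with a median of 0.05.

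Apart from that library, the members varied little between replicates. The median standard deviation of log2 CPM within a group was 0.17 in TG-High, 0.62 in TG-Low and 0.20 in NTG for the members. For 355 other rows of like level it was 0.22 in TG-High, 0.25 in TG-Low and 0.27 in NTG. Between TG-Low replicates 0 and 1 the median absolute difference was 0.21 for the members and 0.24 for the other rows. The wide spread of the TG-Low group in this cluster thus came from 1 library. Each comparison that uses the TG-Low group is therefore given with and without it.

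The levels of the members, as means over the 9 libraries, spanned more than 2 orders of magnitude. miR-127-3p (mean 302 CPM over the 9 libraries) and miR-411-5p (262 CPM) led, followed by miR-434-5p (129 CPM), miR-379-5p (102 CPM), miR-381-3p (94.1 CPM), miR-300-3p (45.9 CPM), miR-541-5p (44.9 CPM), miR-434-3p (40.6 CPM), miR-136-3p (40.3 CPM) and miR-136-5p (29.7 CPM). CPM is not scaled by length, but mature miRNAs are of nearly equal length. The median tested member had 7.64 CPM, against 18.1 CPM for all rows tested. There were 4 members above 100 CPM, 13 between 10 and 100 CPM, and 30 below 10 CPM, the lowest being miR-380-3p at 1.17 CPM. Neighbours in the order such as miR-300-3p, miR-541-5p, miR-434-3p and miR-136-3p overlapped between libraries. In NTG alone miR-379-5p (91.4 CPM) lay just above miR-434-5p (90.3 CPM), and miR-541-5p (44.1 CPM) above miR-300-3p (39.1 CPM).

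Of the leading rows, miR-127-3p lies in the Rtl1 block and miR-411-5p and miR-379-5p in the Mirg block. miR-127-3p had 322, 322 and 347 CPM in TG-High libraries, 411, 354 and 157 CPM in TG-Low libraries, and 330, 240 and 236 CPM in NTG libraries. The TG-High and NTG values overlapped, and the difference did not pass the test (log2 fold change 0.30 ± 0.29 SE, adjusted p = 0.496). miR-411-5p, from the upstream end of the Mirg block, had 293, 329 and 331 CPM in TG-High libraries, 342, 278 and 146 CPM in TG-Low libraries, and 229, 197 and 212 CPM in NTG libraries. All TG-High values lay above all NTG values, yet the difference did not pass the test (0.58 on the log2 scale, adjusted p = 0.132). miR-379-5p, the first hairpin of the Mirg block, had 111, 127 and 116 CPM in TG-High libraries, 127, 113 and 50.2 CPM in TG-Low libraries, and 106, 88.1 and 80.7 CPM in NTG libraries, with an adjusted p of 0.379 for TG-High against NTG.

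TG-High hearts were compared with NTG hearts first, since neither group holds the library that stands apart, although all groups share 1 estimate of the spread. miR-434-5p, miR-136-5p, miR-376b-5p, miR-381-3p and miR-377-3p rose in TG-High hearts, by 1.59-fold to 2.18-fold, and no member fell. These 5 were 10.6% of the 47 members. Over all 509 rows tested, edgeR's quasi-likelihood test called 8.84% higher and 9.43% lower (18.3% in either direction), so the share of members called higher was near that of the whole table. The members did lean upward: 41 of 47 had a positive log2 fold change and the median was 0.42, while the median over all rows tested was -0.01. For 21 of the 47 members (44.7%) all TG-High libraries lay above all NTG libraries, against 20.0% of all rows tested. No member had all TG-High libraries below all NTG libraries, against 19.3% of all rows tested. Members are not independent of each other, so these shares are descriptions only. The 21 include miR-299a-3p and miR-299b-5p, which hold the same counts, and both arms of miR-136. An unadjusted p under 0.05 was found for 10 members (30.8% of all rows tested had one). DESeq2's Wald test also called 5 members, all higher, with miR-370-3p in place of miR-377-3p, against 7.41% of all rows called higher and 16.3% in either direction.

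miR-434-5p, made from the hairpin between miR-127 and miR-136 in the Rtl1 block, had 163, 170 and 169 CPM in TG-High libraries, 163, 137 and 84.5 CPM in TG-Low libraries, and 98.0, 87.6 and 85.2 CPM in NTG libraries. The TG-High libraries clustered tightly, well above NTG, and TG-Low replicate 2 lay just below the lowest NTG library. The means were 167 ± 3.83 CPM in TG-High and 90.3 ± 6.81 CPM in NTG (SD, n = 3 each), a log2 fold change of 0.89 ± 0.21 (SE, 1.85-fold, adjusted p = 0.0141, edgeR). miR-136-5p, its neighbour, had 36.4, 34.9 and 39.9 CPM in TG-High libraries, 31.2, 34.3 and 21.2 CPM in TG-Low libraries, and 21.9, 24.6 and 23.1 CPM in NTG libraries. The TG-High and NTG ranges did not overlap, and the log2 fold change was 0.67 ± 0.19 (adjusted p = 0.0311, edgeR).

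The other 3 rows that rose lie in the Mirg block. miR-376b-5p, from the miR-376 group of hairpins, had 15.03, 8.88 and 12.04 CPM in TG-High libraries, 13.3, 10.1 and 5.62 CPM in TG-Low libraries, and 5.07, 5.27 and 6.00 CPM in NTG libraries. The TG-High and NTG ranges did not overlap, and its log2 fold change in TG-High was 1.12 ± 0.32 (adjusted p = 0.0315, edgeR). miR-381-3p had 121, 109 and 141 CPM in TG-High libraries, 121, 109 and 51.5 CPM in TG-Low libraries, and 72.8, 62.0 and 59.5 CPM in NTG libraries. Both lines were close to each other except for TG-Low replicate 2, which was below every NTG library, and the log2 fold change in TG-High was 0.93 ± 0.27 (adjusted p = 0.0332, edgeR). miR-377-3p was low, with 4.58, 3.75 and 3.83 CPM in TG-High libraries, 3.55, 4.14 and 1.96 CPM in TG-Low libraries, and 1.92, 1.64 and 2.38 CPM in NTG libraries. The TG-High and NTG ranges did not overlap, and the log2 fold change was 1.02 ± 0.32 (adjusted p = 0.0475, edgeR).

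These calls rested on few libraries. When each of the 9 libraries was left out in turn, miR-434-5p passed in 8 of 9 fits and had an adjusted p of 0.0510 without TG-High replicate 1. miR-136-5p and miR-376b-5p passed in 4 fits each, miR-381-3p in 3 and miR-377-3p in 2, with adjusted p-values of 0.0557 to 0.133 where they did not pass. miR-136-5p was lost without any of the TG-High libraries or without NTG replicate 0 or 2, and miR-376b-5p without TG-High replicate 0 or 2 or any NTG library. miR-381-3p was lost without any TG-High or NTG library, and miR-377-3p in these fits and without TG-Low replicate 0. The log2 fold changes stayed within 0.62 to 1.28 for the 5 rows in all of these fits. Without TG-Low replicate 2, which enters this comparison only through the shared spread, edgeR called 13 of 49 tested members (26.5%), all higher, against 11.3% of all rows called higher and 21.9% in either direction. miR-411-5p, miR-370-3p and miR-495-3p were then among those called.

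**Figure D3:**
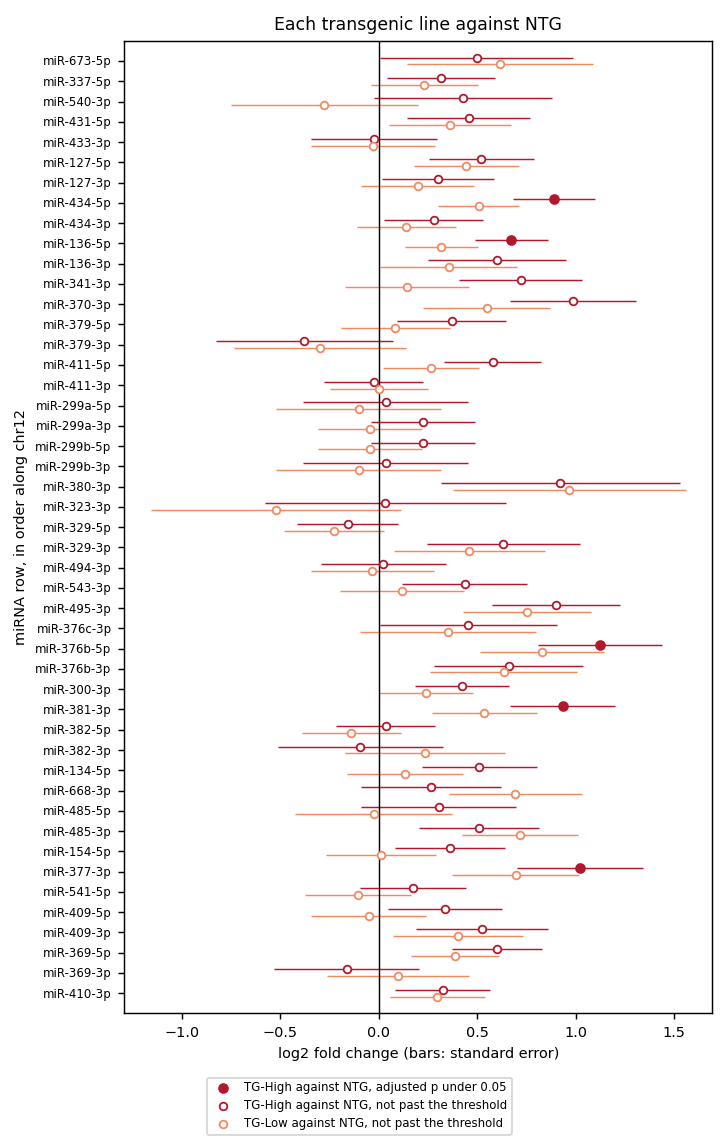
Log2 fold change against NTG of each tested member in the order of the cluster, with its standard error (bars), for TG-High (dark red) and TG-Low (orange), filled where the adjusted p was under 0.05. TG-High is above 0 for 41 of 47 members, and the 5 members that passed the test lie between 0.67 and 1.12.

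Members that did not pass the threshold included miR-370-3p of the Rian block, which had 11.6, 9.28 and 9.57 CPM in TG-High libraries, 9.05, 8.53 and 4.83 CPM in TG-Low libraries, and 7.40, 4.80 and 3.31 CPM in NTG libraries. Its TG-High and NTG ranges did not overlap (log2 fold change 0.99 ± 0.32, adjusted p = 0.0554). For miR-495-3p, described as promoting the division of cultured rat heart muscle cells, the log2 difference was 0.90, with an adjusted p of 0.0815. For miR-410-3p, described in the same way, it was 0.32, with an adjusted p of 0.382. The 6 members with a negative value in TG-High ran from miR-379-3p (-0.38 ± 0.45, adjusted p = 0.602) to miR-433-3p (-0.02 ± 0.32, adjusted p = 0.963). The others were miR-369-3p, miR-329-5p, miR-382-3p and miR-411-3p, and each of these was within its standard error of 0.

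By block, 10 of 11 tested rows of the Rtl1 block had a positive log2 fold change in TG-High, with a median of 0.46 and 2 calls. Both rows of the Rian block were positive with a median of 0.85 and no call. In the Mirg block 29 of 34 rows were positive, with a median of 0.35 and 3 calls. Of all 509 rows tested, 49.3% were positive and 8.84% were called higher. The summed level in TG-High over NTG was 1.39 in the Rtl1 block, 1.76 in the Rian block and 1.40 in the Mirg block. Markers of other cells also differed between these groups. The 4 fibroblast rows summed to 804 to 1067 CPM in TG-High and 706 to 882 CPM in NTG, with a median log2 fold change of 0.48 and 1 of the 4 (miR-214-5p) called higher. The 5 erythroid rows summed to 958 to 1171 CPM in TG-High and 2147 to 2818 CPM in NTG, with 3 of the 5 called lower. Of 8 leukocyte rows, 3 were called lower, among them miR-155-5p (-1.17) and miR-150-5p (-1.08), and 1, miR-223-5p, was called higher (0.93). Lower calls were also made for miR-499-5p of heart muscle (-0.92, adjusted p = 0.00161), miR-145a-3p of smooth muscle (-0.55, adjusted p = 0.0311) and miR-126a-5p of endothelium (-0.39, adjusted p = 0.0447). Each was the only row of its list that was called. The median log2 fold change was 0.03 over the 9 heart muscle rows and -0.34 over the 4 smooth muscle rows. The more abundant endothelial row, miR-126a-3p, was at -0.07. The neural rows had a median of -0.11 and no call, and their sums overlapped. The part of cell content in the members' values was not tested.

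**Figure D4:**
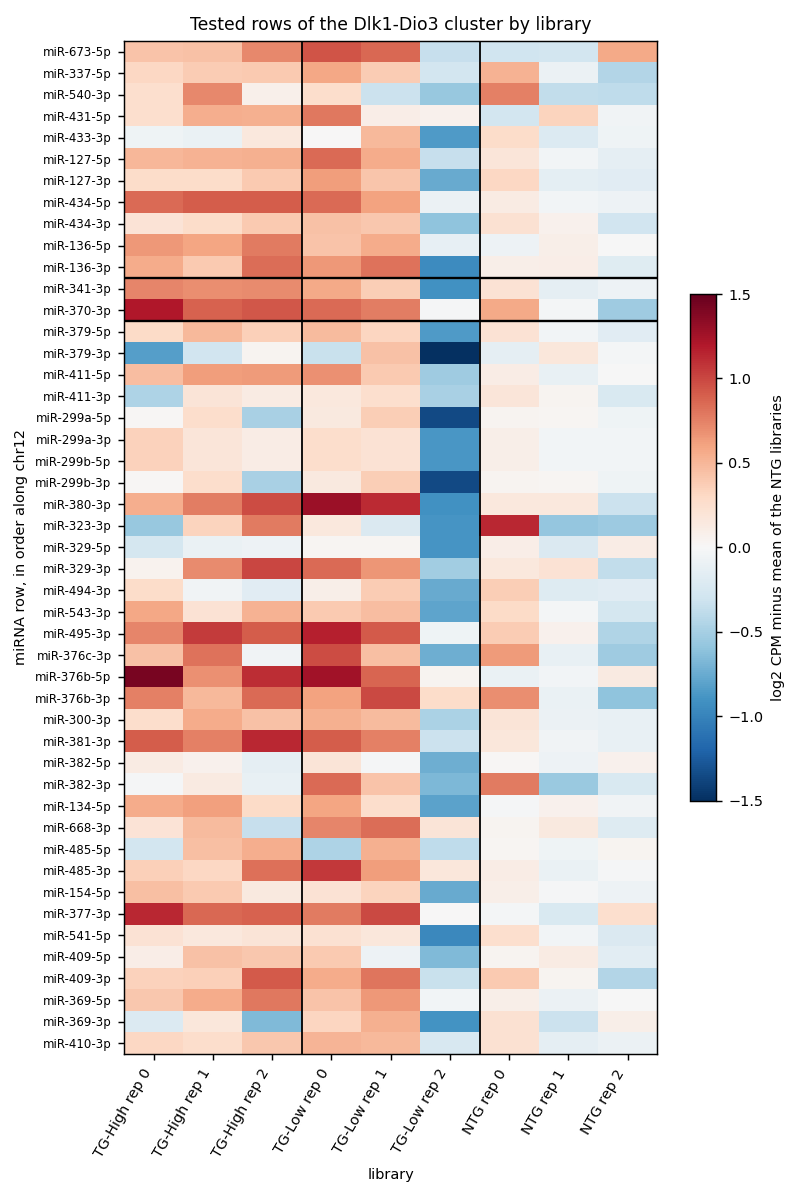
Difference in log2 CPM from the NTG mean for each tested member (1 line each, in the order of the cluster) in the 9 libraries, with black lines between blocks and groups. Values past the ends of the colour scale have its end colours. The column of TG-Low replicate 2 is below 0 for 41 of the 47 members, whereas the other transgenic columns have medians of 0.31 to 0.53.

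With both lines in 1 group, no member passed the threshold against NTG. edgeR called 0 of 47 members, with 8.64% of all rows tested called in either direction. At an unadjusted p under 0.05 there were 9 members, against 30.8% of all rows. DESeq2's Wald test called 3 members, all higher, against 5.96% of all rows called higher and 13.4% in either direction. They were miR-434-5p (adjusted p = 0.0132), miR-376b-5p (0.0138) and miR-381-3p (0.0372). In edgeR miR-376b-5p and miR-434-5p both had an adjusted p of 0.0510, with log2 fold changes of 0.98 ± 0.28 and 0.71 ± 0.21. miR-377-3p (0.86), miR-381-3p (0.75) and miR-495-3p (0.83) followed with adjusted p-values of 0.0766 to 0.0804. A positive value was found for 37 of 47 members and the median was 0.31, against 0.01 over all rows. Only miR-485-3p had all 6 transgenic libraries above NTG (8.06% of all rows did). In the authors' deposited table, which compares both lines with NTG, the same 3 members passed an adjusted p of 0.05, with log2 fold changes of 0.70 (miR-434-5p), 0.97 (miR-376b-5p) and 0.74 (miR-381-3p).

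The 1 library that stands apart decided this count. Without TG-Low replicate 2, edgeR called 15 of 49 tested members (30.6%), all higher. Of all 521 rows then tested, 10.7% were called higher and 20.7% in either direction. The 15 were led by miR-381-3p (log2 fold change 0.89, adjusted p = 0.00260), miR-434-5p (0.83, adjusted p = 0.00295) and miR-376b-5p (1.11, adjusted p = 0.00458). They also included miR-136-5p, miR-377-3p, miR-411-5p, miR-370-3p and miR-495-3p. Leaving out a library by what is seen in it narrows the spread by choice, so the count without it is a description of the dependence and not a second result. The median over the members was then 0.43, against 0.03 for all rows.

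In TG-Low alone no member passed the test against NTG. edgeR called 0 of 47 members (1.57% of all rows tested), and 4 had an unadjusted p under 0.05 (17.3% of all rows). DESeq2 called none of the 47 and 3 of the rows that the filter had removed, all of them at 0 in TG-Low (6.38% of all rows DESeq2 tested). The smallest p was that of miR-376b-5p (0.83 ± 0.31, adjusted p = 0.196), followed by miR-434-5p (0.51 ± 0.21, adjusted p = 0.235), miR-485-3p (0.72 ± 0.29, adjusted p = 0.235) and miR-495-3p (0.75 ± 0.32, adjusted p = 0.246). The median over members was 0.23, against 0.02 over all rows, and 33 of 47 were positive. Only miR-485-3p and miR-668-3p had all TG-Low libraries above NTG (11.4% of all rows did). Without TG-Low replicate 2 the median was 0.46, and edgeR called 3 of 49 members, all higher, against 2.11% of all rows called higher and 3.45% in either direction. They were miR-381-3p (0.80 ± 0.16, adjusted p = 0.0295), miR-434-5p (0.70 ± 0.15, adjusted p = 0.0349) and miR-376b-5p (1.07 ± 0.24, adjusted p = 0.0371). The summed level of the cluster in TG-Low over NTG was 1.19 with all libraries and 1.44 without that library, beside 1.40 for TG-High over NTG. Both lines were compared with the same NTG libraries.

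The lines were also set against each other. edgeR called 0 of 47 members between TG-High and TG-Low (1.38% of all rows tested), and no member had an unadjusted p under 0.05 (8.06% of all rows did). DESeq2 called none of the 47 and 4 of the rows removed by the filter, each at 0 in 1 of the lines (5.80% of all rows). The median over members was 0.17, with 39 of 47 positive, and -0.07 without TG-Low replicate 2, so the direction of the cluster between the lines turned on that library. The smallest p was that of miR-136-5p (0.36 ± 0.19, adjusted p = 0.622). It was 1 of 3 members, with miR-341-3p and miR-370-3p, for which all TG-High libraries lay above all TG-Low libraries (6.68% of all rows did). Without TG-Low replicate 2 edgeR called 1 member, miR-487b-3p, which was at 0 in the TG-Low libraries (0.768% of all rows were called higher and 1.15% in either direction).

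In the TG-Low group the make-up of the cluster was steadier than its level (1321 ± 509 CPM, mean ± SD of the sum). In TG-High the level was steady too (1562 ± 62.3 CPM), and some shares varied more in proportion. The share of all member counts taken by miR-127-3p was 21.2 ± 0.433% in TG-High, 22.9 ± 1.55% in TG-Low and 23.9 ± 1.63% in NTG (mean ± SD, n = 3 each). The share of miR-434-5p was 10.7 ± 0.281% in TG-High, 10 ± 1.23% in TG-Low and 8.13 ± 0.394% in NTG, and it was 11.4% in TG-Low replicate 2, the highest of all. The share of miR-381-3p was 7.92 ± 0.857% in TG-High, 7.08 ± 0.126% in TG-Low and 5.82 ± 0.106% in NTG, and it was 6.94% in TG-Low replicate 2. For both rows the share in that library thus lay above the NTG mean, although its level of the whole cluster was the lowest. The share of miR-541-5p was lower in both lines, at 3.19 ± 0.167% in TG-High, 3.08 ± 0.146% in TG-Low and 3.94 ± 0.210% in NTG. Shares of a whole are not independent of each other, and these were not tested.

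**Figure D5:**
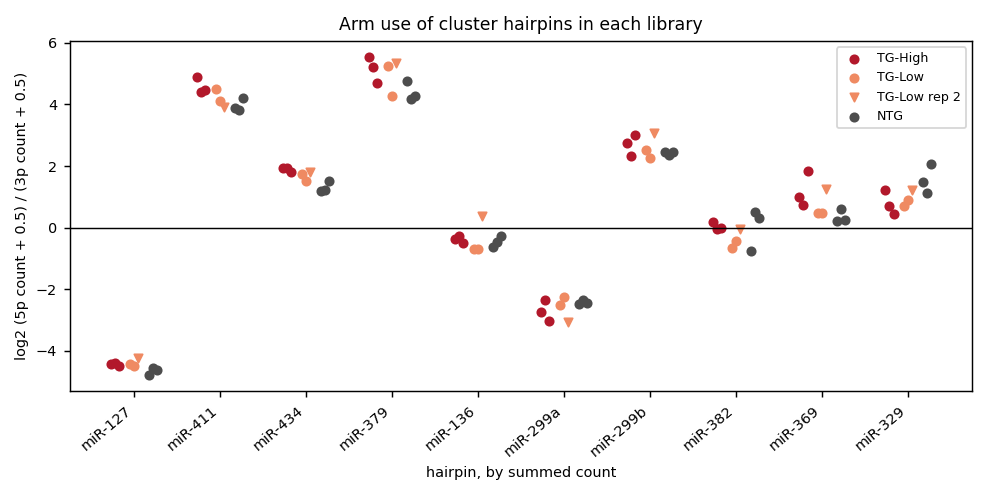
Log2 ratio of the 5p to the 3p count of the 10 member hairpins with the highest summed counts among those with both arms tested, in the 9 libraries (points, with a triangle for TG-Low replicate 2). The miR-434 ratio lies at 1.82 to 1.95 in TG-High, 1.51 to 1.82 in TG-Low and 1.20 to 1.52 in NTG, and miR-136 is above 0 in TG-Low replicate 2 only.

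Use of the arms was compared within each library, so that the level of the cluster does not enter. Of the member hairpins 15 had rows for both arms and 24 for 1 arm, and 13 had a mean count of at least 10 in each arm. The 5p arm held more counts in 7 of the 13 and the 3p arm in 6. The miR-299a and miR-299b hairpins are mirror copies and count once in each direction. The major arm was the same in all 9 libraries for 11 of the 13, the exceptions being miR-136 and miR-382. miR-127 was the most one-sided toward 3p, with mean log2 ratios of -4.44 in TG-High, -4.39 in TG-Low and -4.65 in NTG, and miR-379 the most one-sided toward 5p, at 5.15 in TG-High, 4.95 in TG-Low and 4.40 in NTG.

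The limma test called no member hairpin in any comparison. For TG against NTG it called 0 of 13, against 7.75% of the 142 hairpins tested, with 3 at an unadjusted p under 0.05 (27.5% of all hairpins). For TG-High it called 0, against 4.93% of all hairpins, with 5 at an unadjusted p under 0.05 (23.9%). For TG-Low it called 0, as of all hairpins, with 1 at an unadjusted p under 0.05 (16.9%). The smallest p was that of miR-434, whose hairpin (chr12:109594506-109594599, plus strand, GRCm38.p6) is shown with the 5p and 3p arms in capitals.
miR-434 hairpin: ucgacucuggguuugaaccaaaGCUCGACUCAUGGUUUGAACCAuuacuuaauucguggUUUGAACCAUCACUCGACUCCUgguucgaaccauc
The log2 ratio of its arms was 1.95, 1.94 and 1.82 in TG-High libraries, 1.73, 1.51 and 1.82 in TG-Low libraries, and 1.20, 1.21 and 1.52 in NTG libraries. All TG-High values lay above all NTG values, and the highest NTG value lay just above the lowest TG-Low value. The mean ratio was 1.91 ± 0.07 in TG-High and 1.31 ± 0.18 in NTG (SD, n = 3 each). The change was 0.60 ± 0.16 (SE, adjusted p = 0.0528 in limma's fit over all hairpins). The 5p arm rose in TG-High as given above, whereas the 3p arm had 42.1, 44.1 and 47.6 CPM in TG-High libraries, 49.2, 48.1 and 23.9 CPM in TG-Low libraries, and 42.6, 37.9 and 29.7 CPM in NTG libraries (log2 fold change in TG-High 0.28, adjusted p = 0.469). When only hairpins with a mean count of at least 50 per arm were tested, the miR-434 change passed in TG-High (adjusted p = 0.0241) and in TG (adjusted p = 0.0278), with 5 member hairpins among 91. miR-411 also passed there in TG-High (adjusted p = 0.0427). The share of all 91 hairpins that passed at this minimum is not given here, so these calls are not read as a trait of the cluster.

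miR-411 had a change of the same size in TG-High (0.62 ± 0.20, adjusted p = 0.0879, limma), with all TG-High ratios above all NTG ratios. miR-379 changed by 0.75 ± 0.31 (adjusted p = 0.166) and miR-329 by -0.77 ± 0.33 (adjusted p = 0.173), so neither passed. In miR-136 the 3p arm held more counts in 8 libraries, with log2 ratios of -0.70 to -0.26, and TG-Low replicate 2 alone had more 5p counts, at 0.37. In that library miR-136-3p was lower than the other TG-Low libraries by -1.68 on the log2 scale and miR-136-5p by -0.62. The median absolute shift in that library from the mean of the other TG-Low libraries was 0.48 over the 13 hairpins and 0.24 over all 142. Between TG-Low replicates 0 and 1 the median absolute difference was 0.27 over the 13 and 0.24 over all 142.

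The 7 members that the filter left out had mean counts of 1.33 (miR-380-5p) to 7.78 (miR-376a-5p). The filter keeps rows that are high in at least 1 group. Of these rows 5 were at exactly 0 in all 3 libraries of a transgenic group. miR-380-5p was at 0 in all TG-High and all TG-Low libraries, with 4, 5 and 3 counts in NTG libraries. miR-487b-3p had 7, 15 and 5 counts in TG-High libraries, 0 in each TG-Low library, and 6, 5 and 4 counts in NTG libraries. miR-540-5p and miR-667-3p were likewise at 0 in all TG-Low libraries only, with 4 to 17 counts in TG-High and 3 to 8 counts in NTG, and miR-666-5p was at 0 in all TG-High libraries only, with 3 to 10 counts in TG-Low and 1 to 3 counts in NTG.

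Such zeros were not particular to the members. In all, 41 of the 621 rows were at 0 in all 3 TG-High libraries, 53 in all 3 TG-Low libraries and 0 in all 3 NTG libraries, while 0 rows in TG-High, 1 in TG-Low and 1 in NTG were at 0 in exactly 2 libraries. Rows at 0 in exactly 1 library numbered 18 in TG-High, 6 in TG-Low and 15 in NTG. In the transgenic groups most rows with a 0 were thus at 0 in the whole group, whereas in NTG none was. Whether the zeros of a whole group are counts or the result of a step before deposit cannot be told from the table. No fold change is given for these rows, and the calls made for them above rest on these zeros. The other 2, miR-665-3p and miR-376a-5p, had counts in every library, of 2 to 8 and 4 to 13.

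Hairpins of the same locus that are no members gave 7 rows, 5 of them tested (miR-3544-3p, miR-3071-3p, miR-3071-5p, miR-1247-5p and miR-1193-3p). The first 3 lie opposite members, and miR-3071-3p was called higher in TG-High with the counts of miR-136-5p. Of the other 2, miR-1193-3p had 0.429 to 2.74 CPM in TG-High libraries, 0.734 to 1.34 CPM in TG-Low libraries, and 0.411 to 1.35 CPM in NTG libraries (log2 fold change in TG-High 0.36 ± 0.61, adjusted p = 0.745). miR-1247-5p had 1.29, 1.71 and 1.91 CPM in TG-High libraries, 2.20, 1.22 and 0.784 CPM in TG-Low libraries, and 0.959, 1.40 and 0.414 CPM in NTG libraries (0.82, adjusted p = 0.302). For both rows the groups overlapped.

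The rows of the table most like the median profile of the members over the 9 libraries were also listed, by the root mean square difference in centred log2 CPM. The 5 nearest rows that are no members were miR-3544-3p (0.173) and miR-3071-3p (0.214), which are mirror rows of members, then let-7f-2-3p (0.220), miR-152-5p (0.224) and miR-1843a-5p (0.236). Members themselves ranged from 0.0565 (miR-300-3p) to 0.514 (miR-323-3p). miR-152-5p had 44.8, 39.1 and 36.9 CPM in TG-High libraries, 46.7, 47.4 and 29.8 CPM in TG-Low libraries, and 32.1, 25.7 and 31.9 CPM in NTG libraries, with the lowest transgenic value in TG-Low replicate 2 as in the cluster. These rows were picked for their likeness, which is given as a description.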

How the data were processed

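Total RNA of the left ventricle was sequenced as miRNA libraries, 9 in all. Tools listed in the submitters' processing notes are Novoalign, SAMtools, bcl2fastq 1.8.4, DESeq2 1.18.1 and Trim Galore 0.4.0, with the build mm10 (GRCm38). Not given in the sources used here: which tool did which step, how reads were counted, whether strand was used, how reads matching several miRNAs were treated, and the annotation.

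The deposited table holds, per the file headers, a raw count of each of 621 miRNAs in each library. Beside these the authors gave, per row, a mean normalized signal, the log2 fold change (TG over NTG) and its error, a score (the Wald statistic), the p-value and an adjusted p. Sample columns without a label numbered 0.

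The members, lists and tests were chosen with earlier results of these data known. Counts were scaled by the trimmed mean of M values (TMM), rows were kept by filterByExpr with a minimum count of 10 (509 kept, 112 left out), and edgeR 4.0.16 (limma 3.58.1, R 4.3.3) fitted its quasi-likelihood test over all rows kept. TG against NTG was fitted with 2 groups, and the other comparisons with 3. Calls had a Benjamini-Hochberg adjusted p under 0.05. Levels are TMM-scaled CPM, and log2 CPM used a prior count of 2. Arm use was tested by limma on log2((5p count + 0.5)/(3p count + 0.5)) over 142 hairpins. Rows were near-identical if their mean count was 8 or more and log2(count + 1) never differed by 0.03 or more. Named members were those called, the 10 most abundant, the 5 with the smallest p in each direction, the ends of blocks and those left out. Where a list of this kind was long, its range is given. The fits were tested on simulated data. Precision is limited by 3 libraries a group and, for members of a few CPM, by counting.

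Alternatives were DESeq2 1.42.0 (size factors and Wald test), all rows unfiltered, each library left out, replicate numbers as a block, the 5 most abundant rows removed, 1 row of each near-identical set and, for arms, a pseudocount of 2 and a minimum of 50. Leaving out libraries for the summed level and the shared variation was added after the data were seen. Sequences are from RefSeq (GRCm38.p6) and positions from GENCODE M21. Python 3.11.15 drew the plots.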

Additional observations from a re-analysis of the deposited data

Results flagged for a closer look

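Within the 6 transgenic libraries, TG-Low replicate 2 lay far below the other 5 for 11 of the 16 sums and abundant members examined, by the gap to the nearest library as a share of the whole range (above Dixon's 95% critical value). That value is meant for a library not named beforehand, so it gives no chance rate here. This library was already known to stand apart, so the counts here describe it and do not test it. The summed level was 742 CPM in that library, and the nearest transgenic library had 1501 CPM. The Rtl1 block had 329 CPM there and the Mirg block 404 CPM, against 652 CPM and 821 CPM in the nearest library. Among abundant members it had 157 CPM of miR-127-3p, 146 CPM of miR-411-5p, 50.2 CPM of miR-379-5p, 51.5 CPM of miR-381-3p and 28.0 CPM of miR-300-3p. It further had 22.2 CPM of miR-541-5p, 23.9 CPM of miR-434-3p and 16.3 CPM of miR-136-3p. Over all rows tested, the library was this far below for 24 of 47 members (51.1%) and for 4 of the 462 other rows (0.866%). miR-434-5p and miR-136-5p were not among the 11. The members share transcripts and are not independent of each other, and the cause was not tested.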

How the results depend on the processing

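DESeq2 size factors and leaving out the 5 most abundant rows kept every count of members called within 1.5 times. The count for TG against NTG, 0 as reported, was 3 of 54 members with DESeq2's Wald test (83 of all 621 rows were called). It was 3 of 54 with no filter on low counts, 2 of them higher (66 of all 621 rows). With 1 row of each near-identical set it was 2 of 45 (42 of all 487 rows). With the Wald test the count was 3 for TG-Low (6.38% of all rows) and 4 between the lines (5.80% of all rows). With no filter it was 2 for TG-Low and 4 between the lines, and the share over all rows is not given here for these. A minimum of 50 counts per arm gave 1 call of arm use for TG and 2 for TG-High, with fewer hairpins tested. The share called over all hairpins is not given here for that minimum. With 1 library left out, counts ran from 0 to 15 for TG, 1 to 13 for TG-High, 0 to 3 for TG-Low and 0 to 1 between the lines. The highest count came in each case without TG-Low replicate 2. Of all rows tested in that fit, 20.7% were called for TG, 21.9% for TG-High, 3.45% for TG-Low and 1.15% between the lines. Calls of arm use ran from 0 to 2 for TG (2 without TG-Low replicate 1) and were 0 for TG-High and TG-Low. The summed level ran from 1.34 to 1.51 for TG-High over NTG, 1.01 to 1.44 for TG-Low over NTG, and 0.970 to 1.38 for TG-High over TG-Low, which turned below 1 without TG-Low replicate 2. The median of TG-Low replicate 2 against the NTG mean ran from -0.74 to -0.44. A further 20 single values changed sign, none past the threshold. The ranges over the left-out libraries were, for TG, -0.18 to 0.12 (miR-433-3p), -0.10 to 0.065 (miR-382-5p) and -0.58 to 0.71 (miR-323-3p). For TG-High they were -0.21 to 0.21 (miR-411-3p), -0.46 to 0.042 (miR-369-3p) and -0.37 to 0.41 (miR-382-3p). For TG-Low they were -0.92 to 0.075 (miR-379-3p), -0.34 to 0.062 (miR-382-5p), -0.90 to 0.42 (miR-323-3p) and -0.61 to 0.27 (miR-540-3p). Between the lines they were -0.59 to 0.066 (miR-382-3p), -0.35 to 0.083 (miR-485-3p), -0.40 to 0.16 (miR-673-5p) and -0.55 to 0.012 (miR-369-3p). The cause was not tested.

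Replicate numbers were not taken to pair the libraries in the main fits. The 9 pairs with the same number had correlations of deviations of -0.17 to 0.23, 3 of them over 0.1. Pairs with different numbers were not set beside these, so pairing cannot be judged from them. With the number as a replicate block, the counts were 0 for TG, 5 for TG-High, 0 for TG-Low and 0 between the lines, and 0 for arm use. In TG-High miR-377-3p (log2 0.99, adjusted p = 0.0859, edgeR) was lost and miR-370-3p called.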

Other observations

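Rows of other imprinted loci were looked at beside the cluster. Of 13 such rows 11 were tested, with a median log2 fold change of -0.18 in TG-High. miR-335-5p and miR-335-3p, from an intron of the imprinted gene Mest, fell in TG-High by 1.31 and 1.15 on the log2 scale (adjusted p = 0.00155 and 0.00161, edgeR). miR-298-5p, from the Nespas locus, rose by 1.09 (adjusted p = 0.0315, edgeR).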
